A study of Mus musculus with 24 samples.

Results

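FOXO transcription factors and the genes of muscle atrophy were examined in mice that lacked Crif1 in the liver. The set held 8 genes of the 24532 in the joined expression table, of which 21135 were above 0 in any library. The genes were listed by name and were chosen from measured values of LKO against Ctrl mice in these libraries, so the differences between LKO and Ctrl are given for them as descriptions, without tests. RNA was sequenced from the gastrocnemius muscle (GM), liver, inguinal white adipose tissue (iWAT) and hypothalamus, with 3 Ctrl and 3 LKO libraries per tissue and 24 in all. Ctrl mice were C57BL/6 of the genotype Crif1flox/flox, and LKO mice were Alb-Cre;Crif1flox/flox on the same strain. Both groups thus carried the floxed alleles, were fed a chow diet and were 8 weeks old. The albumin promoter drives Cre in hepatocytes, so the deletion is meant for the liver alone. It is not stated if 1 mouse gave several tissues, nor is the sex in the labels. Nothing in the labels ties a library to a mouse, so the errors below measure the spread between libraries, which may be technical in part.

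FOXO1 and FOXO3 are forkhead transcription factors that insulin and growth factor signalling, through AKT, holds in the cytoplasm. When that signal falls, as in fasting, they enter the nucleus and activate genes of protein breakdown, autophagy and fuel choice. In muscle their best known targets are the ubiquitin ligases atrogin-1 (Fbxo32) and MuRF1 (Trim63), which mark muscle proteins for the proteasome. KLF15 is a transcription factor induced by glucocorticoids that raises amino acid breakdown, TXNIP is an alpha-arrestin that restrains thioredoxin and glucose uptake, SESN1 is a sestrin that restrains mTORC1, and MSTN (myostatin) is a secreted inhibitor of muscle growth.

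Promoter sequence was found for 7 of the 8 genes in RefSeq (GRCm38.p6), as 8 windows of 300 bases from 250 before to 50 after a start site, with 2 starts for Sesn1. Fbxo32 had no entry in the promoter set used, although a RefSeq transcript is listed for it. They were searched on both strands for GTAAACA (a forkhead motif), CACGTG (an E-box) and AGAACA (one arm of a glucocorticoid receptor element). Of 32851 mouse promoters, 3.65% held the first, 7.15% the second and 19.0% the third. GTAAACA was found before Txnip, before Trim63 on the opposite strand, and 22 bases after a start of Sesn1 on the opposite strand. AGAACA was found before Trim63 next to the forkhead match, and CACGTG was found at 3 places in Klf15, of which 2 lay before the start and 1 ran across it. A match is a description of the letters and not a measured binding site. The 3 stretches of 100 bases below are shown because they hold the matches upstream of genes whose levels are described next. Distances are counted from the start site of the RefSeq promoter table, which for Trim63 and Txnip is also the start listed in the library tables and for Klf15 lies 50 bases before it. The capitals mark the matches, and each stretch is printed as the plus strand, which is that of its gene.
Trim63, chr4:134314890-134314989, first base 230 before the start, with the reverse complements of AGAACA and GTAAACA side by side: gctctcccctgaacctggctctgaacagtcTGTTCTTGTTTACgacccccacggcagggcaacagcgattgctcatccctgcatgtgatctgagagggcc
Txnip, chr3:96557797-96557896, first base 160 before the start, with GTAAACA: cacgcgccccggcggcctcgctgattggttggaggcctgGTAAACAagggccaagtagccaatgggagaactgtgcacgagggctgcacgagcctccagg
Klf15, chr6:90462336-90462435, first base 240 before the start, with 2 of the 3 CACGTG matches: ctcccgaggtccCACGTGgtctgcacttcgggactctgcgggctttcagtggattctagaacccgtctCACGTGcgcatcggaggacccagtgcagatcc

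Levels are in FPKM (fragments of a gene relative to transcript length and library depth), which are comparable between genes per length. Depth was between 4.45 and 8.09 gigabases per library by the ratio of coverage to FPKM. The deleted gene, listed as Gadd45gip1, was at 5.40, 2.002 and 2.51 FPKM in LKO liver against 14.6, 12.5 and 13.6 in Ctrl liver, and its LKO and Ctrl ranges overlapped in the other 3 tissues. The summed level of 7 skeletal muscle genes was 113196 to 123695 FPKM in Ctrl GM and 111678 to 121442 in LKO GM, and none was at 0. In GM the sum of 6 adipocyte genes was 70.5 to 403 in Ctrl and 57.7 to 416 in LKO, and that of 4 fibroblast genes was 214 to 253 in Ctrl and 276 to 321 in LKO, so the fibroblast sum was higher in every LKO library. None of these adipocyte and fibroblast genes was at 0 in GM. The part of fibroblast RNA in the muscle values was not tested. The hepatocyte genes in liver, the adipocyte genes in iWAT and the neuron genes in hypothalamus were also all above 0. In bulk RNA, fewer cells of a type and less RNA per cell cannot be told apart.

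In muscle, Foxo1, Txnip, Klf15 and Sesn1 were higher in all 3 LKO libraries than in any Ctrl library. Fbxo32 and Trim63 were higher in 2 of the 3, Foxo3 differed little, and Mstn was the gene with the lower mean in LKO. Fold changes are LKO minus Ctrl on log2(FPKM + 1), with the standard error (SE) of a limma fit over all genes. A change of at least 1.5-fold with an unadjusted p under 0.05 was used as the criterion to count genes.

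Foxo1 was at 3.30, 3.25 and 3.17 FPKM in the Ctrl muscles. In the LKO muscles it was at 6.17, 5.97 and 7.70 FPKM. The lowest LKO library was thus well above the highest Ctrl library, and the log2 fold change was 0.84 ± 0.10 (SE, n = 3 per group). Foxo3, its paralog, was at 2.89, 3.05 and 3.30 FPKM in Ctrl and at 4.52, 3.54 and 3.20 in LKO. The Foxo3 ranges overlapped, and the log2 fold change was 0.21 ± 0.12, or 0.10 without LKO replicate 1. Klf15 was at 19.0, 16.2 and 15.9 FPKM in Ctrl and at 21.5, 25.1 and 26.8 in LKO. All 3 LKO values were above Ctrl, with a log2 fold change of 0.50 ± 0.10, which is under the 1.5-fold criterion.

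The muscle ubiquitin ligases split the LKO libraries. Trim63 was at 139, 132 and 158 FPKM in Ctrl and at 149, 292 and 301 in LKO. LKO replicates 2 and 3 were at 2.04 and 2.10 times the Ctrl mean, and replicate 1 was at 1.04 times, within the Ctrl range. Fbxo32 showed the same split, at 39.1, 37.8 and 43.9 FPKM in Ctrl and at 37.9, 62.1 and 59.8 in LKO. The log2 fold changes were 0.72 ± 0.26 for Trim63 and 0.37 ± 0.18 for Fbxo32. With single libraries left out, they ran from 0.54 (without LKO replicate 3) to 1.05 (without LKO replicate 1) for Trim63, and from 0.24 (without LKO replicate 2) to 0.59 (without LKO replicate 1) for Fbxo32. The promoter of Trim63 is the one shown above with the adjacent matches.

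Txnip was at 204, 162 and 208 FPKM in Ctrl muscle. It was at 356, 358 and 340 FPKM in LKO muscle, the tightest LKO group of the 8 genes relative to its mean, and the groups did not overlap. Its log2 fold change was 0.88 ± 0.10. A transcript on the opposite strand, Gm15441, overlaps Txnip and was at 0.28 to 0.75 FPKM in muscle. The kit does not mark strand, so reads shared by the pair cannot be told apart, and no annotated gene in the library tables overlapped the other 7 genes.

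Sesn1 was at 11.2, 10.3 and 7.04 FPKM in Ctrl muscle and at 15.7, 16.9 and 17.7 in LKO muscle. The groups were apart, and the log2 fold change was 0.78 ± 0.15. Mstn was at 17.8, 17.6 and 22.5 FPKM in Ctrl and at 18.7, 15.7 and 12.1 in LKO. Replicates 2 and 3 of LKO were below the Ctrl range and replicate 1 within it, with a log2 fold change of -0.31 ± 0.16, which ran from -0.45 without LKO replicate 1 to -0.16 without LKO replicate 3. In muscle, Trim63, Fbxo32 and Mstn thus shared the same LKO library within the Ctrl range, whereas Foxo1, Txnip, Klf15 and Sesn1 were above it in every LKO library. That library, LKO replicate 1, also had an adipocyte sum of 416 FPKM against 57.7 and 95.8 in the other LKO muscles, and a sum of 5 macrophage genes of 31.0 against 17.3 and 19.8, with none of these genes at 0. The Ctrl muscles were at 70.5 to 403 and 14.0 to 21.7 for these sums. The part of these markers in the values of that library was not tested.

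**Figure D1:**
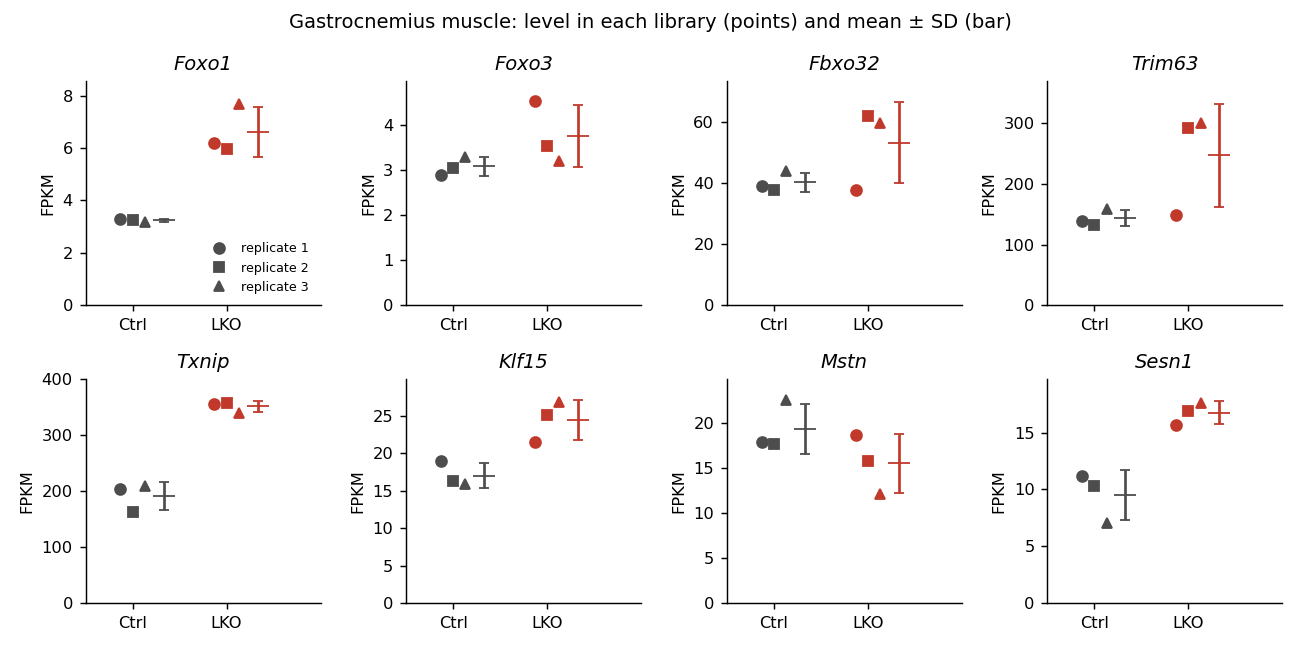
Each panel plots 1 gene in gastrocnemius muscle, with FPKM on a linear axis from 0, each library as a point shaped by its replicate number, and the mean ± SD of the 3 libraries of Ctrl and of LKO beside them. Trim63 and Fbxo32 show LKO replicate 1 at the Ctrl level (149 and 37.9 FPKM) with the other two LKO libraries above, and Foxo1, Txnip, Klf15 and Sesn1 show groups that are apart.

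All 8 genes passed the filter of at least 1 FPKM in at least 3 of the 6 muscle libraries. Of them, 4 (Foxo1, Trim63, Txnip and Sesn1) met the criterion, all higher in LKO, where 0.901% of the 10877 muscle genes tested met it in either direction and 0.579% as higher in LKO. The groups did not overlap for 4 genes, against 11.6% of all genes. Neither count is a result about the set, since the genes were chosen on this comparison. No muscle gene of any kind had a limma adjusted p under 0.05 (0% of all genes), and 6.83% had an unadjusted p under 0.05. The median log2 fold change was 0.61 over the 8 genes and -0.03 over all genes.

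In liver, where Crif1 was deleted, Txnip was higher and Klf15 lower in all LKO libraries. On the deposited scale the LKO and Ctrl ranges of Foxo1 and Foxo3 overlapped, and Foxo3 was lower after the scaling given below. Txnip was at 19.2, 16.4 and 18.9 FPKM in Ctrl liver and at 38.7, 65.0 and 77.0 in LKO liver. Even the lowest LKO value was above every Ctrl value, and the log2 fold change was 1.62 ± 0.24. Klf15 was at 81.6, 77.9 and 87.0 FPKM in Ctrl and at 59.9, 49.0 and 44.8 in LKO, with a log2 fold change of -0.68 ± 0.13. Its direction in liver was thus the opposite of that in muscle, where every LKO library was above Ctrl.

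Liver values depend on the scale. The median log2 fold change of all liver genes was 0.33 on the deposited FPKM, 0.02 after median-ratio scaling and 0.47 on the deposited TPM, whereas in the other tissues it was within 0.03 of 0 on each scale. After median-ratio scaling the log2 fold change was 1.27 for Txnip and -1.04 for Klf15. On the deposited TPM it was 1.77 for Txnip and -0.56 for Klf15, which was then under the 1.5-fold criterion. Foxo1 was at 7.51, 9.71 and 9.60 FPKM in Ctrl liver and at 9.46, 11.1 and 10.2 in LKO liver. Its groups overlapped, and its log2 fold change was 0.18 ± 0.13 as deposited and -0.15 after scaling. Sesn1 also changed sign, from 0.16 to -0.14, with overlapping groups. Foxo3 was at 7.10, 7.42 and 6.02 FPKM in Ctrl and at 5.06, 5.66 and 6.84 in LKO. Its log2 fold change was -0.20 ± 0.14 as deposited and -0.51 ± 0.09 after scaling, so its size depended on the scale.

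Fbxo32 was at 0.34 to 0.79 FPKM over the liver libraries, Trim63 was listed at 0 in 5 of them and at 0.07 in the sixth, and Mstn was listed at 0 in all. None of these 3 passed the filter there. Of the 5 liver genes tested, 2 met the criterion (28.9% of all 10956 genes) and 2 had groups that did not overlap (61.1% of all genes). As in muscle, nothing is read from these counts, nor from those of iWAT and hypothalamus below, since the genes were chosen with LKO against Ctrl values in view. In LKO liver the sum of 5 macrophage genes was 105 to 170 FPKM against 54.7 to 55.3 in Ctrl, and that of 4 fibroblast genes was 154 to 167 against 58.2 to 67.7, and that of 4 endothelial genes 32.4 to 53.0 against 24.8 to 28.5. None of these marker genes was at 0. Sums of 6 adipocyte genes (10.02 to 17.7 against 8.14 to 8.79, with up to 2 genes at 0) and 4 Schwann cell genes (3.99 to 5.21 against 1.84 to 2.14, none at 0) were also higher in LKO liver, and that of 6 neuron genes was lower (1.304 to 1.77 against 2.61 to 3.28, with up to 5 genes at 0). The adipocyte sum did not stand for its list. Cidec was higher in every LKO library (5.06, 12.4 and 13.8 FPKM against 0.57, 1.10 and 0.70 in Ctrl). Adrb3 was lower in every one (2.93, 2.08 and 1.77 against 7.23, 4.88 and 5.28), and the rest of the list overlapped. Syt1 made up most of the neuron sum. The sum of 6 hepatocyte genes was 61300 to 65457 FPKM in Ctrl liver and 76073, 62392 and 49375 in LKO replicates 1 to 3. Of this list Ahsg was higher and Apoa1, Serpina1c and Apoc3 were lower in every LKO library, and Alb and Fgb overlapped. The part of all these markers in the liver values was not tested.

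In iWAT, Foxo3 and Fbxo32 were higher in all 3 LKO libraries, and Foxo1 was not. Foxo3 was at 3.58, 3.40 and 4.15 FPKM in Ctrl fat and at 4.31, 6.44 and 6.76 in LKO fat. The log2 fold change of Foxo3 was 0.52 ± 0.16, with LKO replicate 1 close to the Ctrl range. Fbxo32 was at 2.60, 1.88 and 2.42 FPKM in Ctrl and at 2.65, 4.54 and 3.69 in LKO. Again LKO replicate 1 was only just above Ctrl, and the log2 fold change was 0.47 ± 0.17. Foxo1 was at 26.6, 25.3 and 36.4 FPKM in Ctrl and at 29.7, 31.8 and 30.9 in LKO, with a log2 fold change of 0.08 ± 0.14.

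Txnip in iWAT was at 435, 682 and 732 FPKM in Ctrl and at 729, 1049 and 960 in LKO. The groups overlapped by a narrow margin, and the log2 fold change was 0.59 ± 0.24, a fold of 1.501 that lay at the limit of the criterion. It ran from 0.35 without Ctrl replicate 1 to 0.74 without LKO replicate 1. Klf15 was at 47.8, 37.8 and 45.0 FPKM in Ctrl and at 41.2, 71.0 and 62.0 in LKO, and Sesn1 had a log2 fold change of 0.15 ± 0.19, and both overlapped. Klf15 and Sesn1 thus did not separate in fat as they did in muscle.

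Trim63, a gene of striated muscle, was at 0.94, 0.12 and 0 FPKM in Ctrl iWAT and at 0.27, 3.39 and 0.08 in LKO iWAT. The sum of the 7 skeletal muscle genes in the same libraries was 664, 107 and 68.4 FPKM in Ctrl and 114, 1046 and 42.9 in LKO. The highest Trim63 value of each group was in the library with the highest sum, the highest Fbxo32 values (2.60 in Ctrl and 4.54 in LKO) were in the same libraries, and none of the 7 muscle genes was at 0. The part of muscle RNA in Trim63 and Fbxo32 was not tested, and neither Trim63 nor Mstn, at 0 to 0.12 FPKM, passed the filter. Of the 6 genes tested in iWAT, 1 (Txnip) met the criterion (3.25% of all 12288 genes) and 2 had groups that did not overlap (20.8% of all genes). The count of 1 was 0 without Ctrl replicate 1, LKO replicate 2 or LKO replicate 3, 2 without Ctrl replicate 3 and 4 without LKO replicate 1. In iWAT the sum of 4 endothelial genes was 112 to 128 FPKM in Ctrl and 174 to 229 in LKO, and that of 4 Schwann cell genes 310 to 413 and 421 to 500. None of these 8 genes was at 0. The sum of 6 hepatocyte genes was 18.9 to 31.2 FPKM in Ctrl iWAT and 42.6 to 65.1 in LKO iWAT, with up to 2 of the 6 at 0 in a Ctrl library. The sum of the 6 adipocyte genes was 26866 to 31125 FPKM in Ctrl iWAT and 19783, 27781 and 28221 in LKO replicates 1 to 3. Their mean log2(FPKM + 1) was 10.19 to 10.34 in Ctrl and 10.08 to 10.15 in LKO, lower in every LKO library. The genes of this list did not move together. Lep was lower in every LKO library (145, 55.4 and 51.7 FPKM against 198, 198 and 159 in Ctrl). Cidec was higher in every one (1799, 1926 and 1688 against 1459, 1291 and 1565), and the rest, Adipoq among them, overlapped. The part of these markers in the iWAT values was not tested.

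In the hypothalamus the differences were small. Foxo1 was at 5.84, 5.48 and 4.93 FPKM in Ctrl and at 6.61, 6.99 and 6.32 in LKO, with a log2 fold change of 0.25 ± 0.08. Txnip was at 14.6, 17.6 and 16.1 FPKM in Ctrl and at 21.9, 19.1 and 18.3 in LKO, a log2 fold change of 0.28 ± 0.09. Klf15 and Sesn1 had log2 fold changes of 0.21 ± 0.08 and 0.08 ± 0.05. The LKO libraries were above Ctrl for each of these 4 genes, by margins smaller than in muscle.

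Foxo3 in hypothalamus was at 5.86, 3.17 and 1.85 FPKM in Ctrl and at 3.86, 4.87 and 3.998 in LKO, so that the Ctrl libraries spread across the LKO range. Its log2 fold change was 0.27 ± 0.29, and -0.03 without Ctrl replicate 3. Fbxo32 overlapped, with a log2 fold change of -0.13 ± 0.11. Trim63 was at 0.13 to 0.41 FPKM and Mstn at 0 to 0.05, below the filter. Of the 6 genes tested, 0 met the criterion (0.333% of all 13828 genes) and 4 did not overlap (9.7% of all genes). The sum of 4 endothelial genes was 25.2 to 30.1 FPKM in Ctrl and 22.1 to 25.0 in LKO, with none at 0. Ctrl replicate 3, without which the Foxo3 change was -0.03, stood apart in other markers. Its sum of 6 hepatocyte genes was 32.0 FPKM against 2.30 to 5.53 in the other hypothalamus libraries, with up to 3 genes at 0 there. Its sum of 5 red blood cell genes was 952 against 228 to 460, with up to 1 gene at 0 there. The part of these markers was not tested.

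**Figure D2:**
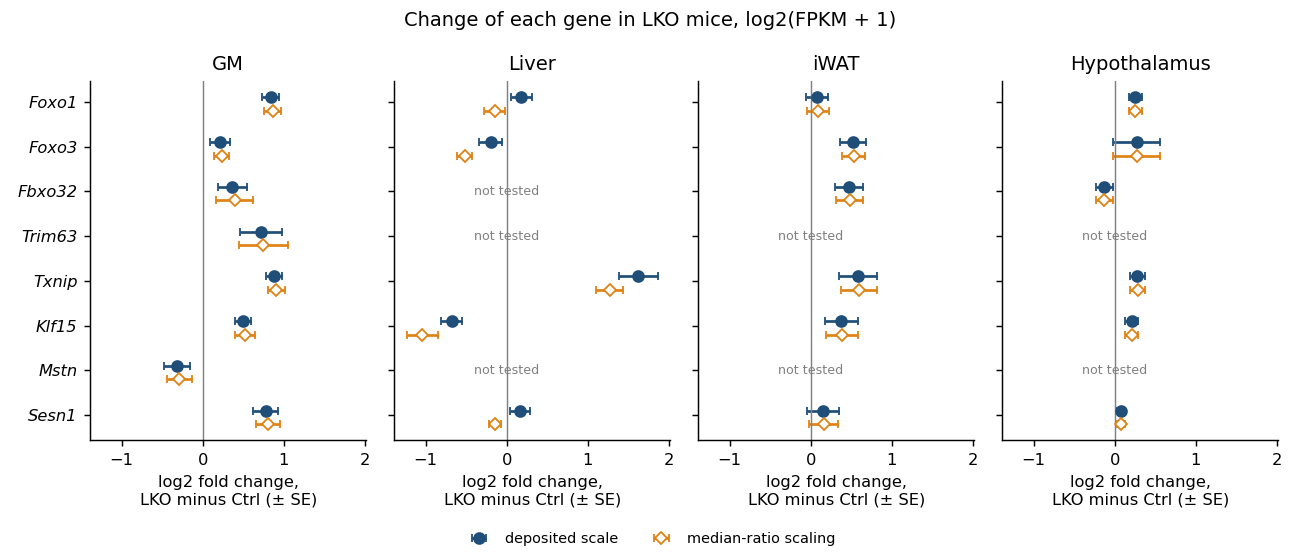
Each panel is a tissue and each row a gene, with the log2 fold change (LKO minus Ctrl, on log2(FPKM + 1)) on the horizontal axis and bars of ± SE from the limma fit, as filled circles on the deposited scale and open diamonds after median-ratio scaling. In GM the values run from -0.31 for Mstn to 0.88 for Txnip on the deposited scale, and in liver Foxo1 and Sesn1 cross 0 between the scales while Txnip stays above 0 and Klf15 below it.

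The level of each gene across tissues was compared in the 12 Ctrl libraries. These are the libraries that served as controls in the comparisons on which the genes were chosen, and it is not known whether levels between tissues also had a part in that choice. A limma fit of 15320 genes gave the 6 differences between pairs of tissues, with Benjamini-Hochberg adjusted p over all genes of a pair. Trim63 and Mstn reached 1 FPKM in no Ctrl library outside GM and entered the fit only through GM, so their levels are given without a test. Of the 36 combinations of pair and the other 6 genes, 30 had an adjusted p under 0.05. By pair there were 6 of 6 for GM against liver, 5 for GM against iWAT, 5 for GM against hypothalamus, 6 for liver against iWAT, 5 for liver against hypothalamus and 3 for iWAT against hypothalamus. The same test called 71.7%, 76.6%, 85.7%, 79.8%, 87.7% and 80.9% of all genes in these pairs, in the same order, so these tissues differ for most genes. The orders and tests below are on FPKM. The ratio of TPM to FPKM was 1.79 to 1.83 in the Ctrl libraries of liver, 1.98 to 2.06 in GM, 2.09 to 2.10 in iWAT and 2.43 to 2.66 in hypothalamus. A small step between tissues may thus not hold on TPM, where 27 of the 36 combinations had an adjusted p under 0.05.

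Foxo1 was lowest in muscle of the tissues measured. Its Ctrl levels were 29.4 ± 6.08 FPKM for iWAT (SD, n = 3), 8.94 ± 1.24 for liver, 5.42 ± 0.46 for hypothalamus and 3.24 ± 0.06 for GM. Each step of this order passed the limma test, with a log2 difference of 1.60 ± 0.13 (SE) between iWAT and liver (adjusted p = 2.97e-07), 0.63 ± 0.13 between liver and hypothalamus (adjusted p = 0.000751) and 0.60 ± 0.13 between hypothalamus and GM (adjusted p = 0.00115). Foxo3 was at 6.85 ± 0.73 FPKM in liver, above iWAT at 3.71 ± 0.39 by a log2 difference of 0.74 ± 0.24 (limma adjusted p = 0.0134). Neighbours among hypothalamus (3.63 ± 2.04), iWAT and GM (3.08 ± 0.21) did not differ beyond the spread.

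The atrophy ligases and Mstn had their highest Ctrl levels in muscle. Fbxo32 was at 40.3 ± 3.23 FPKM in GM and at 2.30 ± 0.37 in iWAT, a log2 difference of 3.65 ± 0.11 (limma adjusted p = 7.17e-11). Fbxo32 in iWAT and hypothalamus (2.12 ± 0.40) did not differ beyond the spread, and liver was lowest at 0.44 ± 0.03. Trim63 was at 143 ± 13.3 FPKM in GM and at means of 0.36 in iWAT, 0.32 in hypothalamus and 0 in liver. Mstn was at 19.3 ± 2.77 FPKM in GM and at or near 0 in the other tissues.

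Txnip, Klf15 and Sesn1 were led by other tissues. Txnip was at 616 ± 159 FPKM in iWAT, 191 ± 25.6 in GM, 18.2 ± 1.54 in liver and 16.1 ± 1.47 in hypothalamus. The steps from iWAT to GM (log2 difference 1.65 ± 0.17, limma adjusted p = 3.11e-06) and from GM to liver (3.32 ± 0.17, adjusted p = 5.07e-09) passed the test, and liver and hypothalamus did not differ beyond the spread. Klf15 was at 82.2 ± 4.61 FPKM in liver, then 43.5 ± 5.14 for iWAT, 17.0 ± 1.68 for muscle and 13.3 ± 1.11 for hypothalamus. Each step passed on FPKM, the smallest being GM to hypothalamus (0.33 ± 0.10, limma adjusted p = 0.00881), a step that may depend on the scale. Sesn1 was at 22.9 ± 0.48 FPKM in hypothalamus and 20.5 ± 3.48 in iWAT, which did not differ beyond the spread, and then at 9.50 ± 2.18 in GM and 4.86 ± 0.42 in liver.

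**Figure D3:**
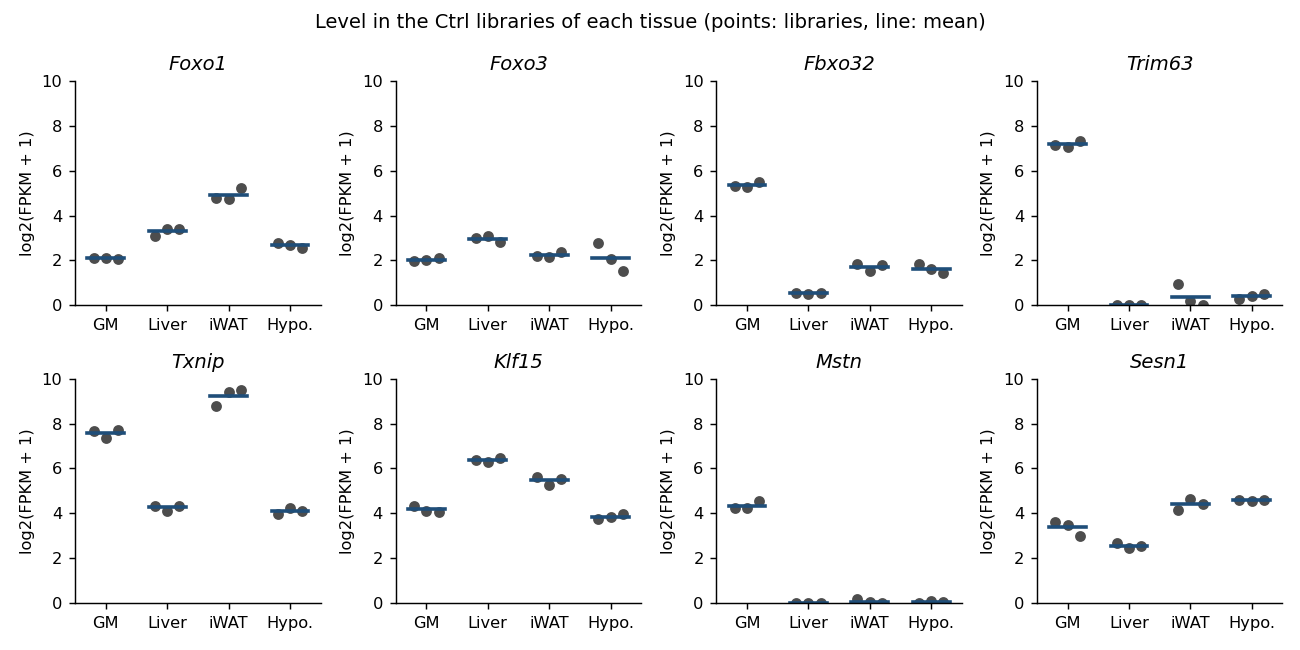
Each panel plots 1 gene in the Ctrl libraries, with log2(FPKM + 1) on the vertical axis, the 4 tissues on the horizontal axis, a point for each of the 3 libraries and a line at their mean. Fbxo32, Trim63 and Mstn are highest in GM, Foxo1 and Txnip in iWAT, and Klf15 and Foxo3 in liver.

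The genes whose levels followed Foxo1 most closely were named from 9021 genes tested in all 4 tissues, by Pearson correlation of log2(FPKM + 1), centred on the tissue mean, over the 24 libraries. They were Wbp1l (r = 0.82), Angptl4, an inhibitor of lipoprotein lipase (0.79), Ell2, an elongation factor of RNA polymerase II (0.77), Xdh, which makes uric acid (0.74), and Sec24a, of the COPII vesicle coat (0.70). These correlations are descriptions over libraries that share tissue, genotype and scale.

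The other genes of the pathway were taken from 9 lists, with 182 genes in all, of which 181 were found in the table. In GM 166 were tested and 0 had a limma adjusted p under 0.05, with 18 at an unadjusted p under 0.05 (11 higher, 7 lower, beside 6.83% of all genes) and 5 that met the criterion (beside 0.901% of all genes). Pdk4, a FOXO target that blocks pyruvate oxidation, was at 58.3, 176 and 165 FPKM in Ctrl muscle and at 360, 690 and 610 in LKO muscle. The groups were apart, and the log2 fold change was 2.15 ± 0.44 (limma adjusted p = 0.43). Gadd45a, a growth arrest gene, had a log2 fold change of 0.60 ± 0.17, Mybph, a myosin-binding protein, 0.68 ± 0.20, and Arrdc2, an alpha-arrestin related to Txnip, 0.97 ± 0.36 with overlapping groups, at limma adjusted p from 0.56 to 0.66. Myod1, a muscle regulatory factor, was at 16.1, 13.6 and 16.2 FPKM in Ctrl and at 10.7, 6.29 and 4.28 in LKO, a change of -1.08 ± 0.26 on the log2 scale (limma adjusted p = 0.51). Myod1 was the 1 gene of these lists with an adjusted p under 0.05 once LKO replicate 1 was left out (limma adjusted p = 0.0491).

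By role, the list medians in muscle lay between -0.11 and 0.13 on the log2 scale. The median log2 fold change was -0.02 over 23 FOXO paralogs and upstream kinases, 0.00 over 18 other ubiquitin ligases of atrophy, 0.01 over 19 autophagy genes and 0.06 over 21 other FOXO target genes. It was -0.11 over 15 genes of the myostatin and activin pathway, -0.04 over 25 genes of sestrins, AMPK and mTORC1, -0.06 over 14 alpha-arrestin and thioredoxin genes, 0.01 over 20 genes of the KLF15, glucocorticoid and branched-chain amino acid list and 0.13 over 14 denervation transcripts. An unadjusted p under 0.05 was found for 4 of the 21 other FOXO targets, all higher, and 2 of these met the criterion. It was found for 3 of the 14 alpha-arrestin and thioredoxin genes, of which 1 met the criterion, and for 3 of the 14 denervation transcripts, of which 2 did. In the other 6 lists 0 genes met the criterion, and such a p was found for 1 of the 23 paralogs and kinases, 1 of the 18 other ligases, 2 of the 19 autophagy genes, 1 of the 15 myostatin and activin genes, 2 of the 25 genes of the sestrin list and 1 of the 20 of the KLF15 list. The shares of all genes were 6.83% for such a p and 0.901% for the criterion. The other ligases ranged from -0.26 to 0.38 on the log2 scale.

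In liver 62 of the 144 genes tested passed an adjusted p under 0.05, which is 43.1% against 43.8% of all genes, with 53 higher and 9 lower. After median-ratio scaling 26 were higher and 24 lower. The count was 18 without LKO replicate 2, 24 to 32 without 1 of the Ctrl libraries, 39 without LKO replicate 3 and 91 without LKO replicate 1. The 43.8% of all genes is the share to set beside each list below, on the deposited scale with all libraries. No share of all genes is given for the counts after scaling, with libraries left out or by direction. Those counts are thus descriptions of the lists and not a comparison with other genes. The other FOXO targets had the largest share of the 9 lists on the deposited scale, 73.9%, with 14 higher and 3 lower of 23 (10 and 4 after scaling). The lists were chosen with earlier results of these data known, so the list shares are descriptions. Pdk4 rose from 4.37, 2.19 and 2.47 FPKM in Ctrl liver to 19.6, 102 and 171 in LKO liver, a change of 4.20 ± 0.71 on the log2 scale (limma adjusted p = 0.00548). The change ran from 3.56 without LKO replicate 3 to 5.10 without LKO replicate 1. Gadd45a rose by 3.22 ± 0.39 on the log2 scale (limma adjusted p = 0.00197), or 4.20 with a pseudocount of 0.1, and Cd36, a fatty acid transporter, with 3.19 ± 0.27 (limma adjusted p = 0.000741).

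The shares of the other lists lay between 0% and 53.8%. Among 19 autophagy genes 7 rose and 2 fell (47.4% against 43.8% of all genes, and 3 and 4 after scaling), led by Ctsl, a lysosomal protease, at 2.01 ± 0.47 on the log2 scale (limma adjusted p = 0.0156) and Sqstm1, the autophagy receptor p62, at 1.70 ± 0.38 (limma adjusted p = 0.0142). Ctsl lost the call without LKO replicate 2 or any 1 of the 3 Ctrl libraries (limma adjusted p from 0.0501 to 0.064), and Sqstm1 without LKO replicate 2, Ctrl replicate 2 or Ctrl replicate 3 (0.0526 to 0.0597). Of 13 other ubiquitin ligases 6 rose and 0 fell (46.2% against 43.8%, and 1 and 2 after scaling), with Cblb at 0.93 ± 0.16 (limma adjusted p = 0.00557). Of 25 genes of sestrins, AMPK and mTORC1 10 rose and 0 fell (40% against 43.8%, and 4 and 4 after scaling), among them Sesn2, a stress-induced sestrin, at 1.12 ± 0.31 (limma adjusted p = 0.0274). Sesn2 lost the call with no filter and without any 1 library other than LKO replicate 1 (limma adjusted p from 0.0522 to 0.0978).

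In the alpha-arrestin list 4 of 12 liver genes rose and 2 fell (50% against 43.8% of all genes, and 2 and 2 after scaling). Arrdc3 rose by 1.69 ± 0.18 on the log2 scale (limma adjusted p = 0.00149), and Arrdc2 fell by 0.69 ± 0.14 (limma adjusted p = 0.01, and 0.0525 without Ctrl replicate 3). Of 13 genes of the myostatin and activin pathway 6 rose and 1 fell (53.8% against 43.8%, and 5 and 1 after scaling), among them the myostatin antagonist Fst at 1.17 ± 0.18 (limma adjusted p = 0.00442) and Fstl1, which belongs to its family, at 1.22 ± 0.15 (limma adjusted p = 0.00185). Of 20 FOXO paralogs and upstream kinases 6 rose and 0 fell (30% against 43.8%, and 1 and 2 after scaling), with Sgk1, a kinase that phosphorylates FOXO, at 1.87 ± 0.50 (limma adjusted p = 0.0243). Sgk1 lost the call without LKO replicate 2 or 3 or Ctrl replicate 2 or 3 (limma adjusted p from 0.0567 to 0.0859).

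Of the 20 genes of the KLF15 and glucocorticoid list 3 rose and 1 fell in liver (20% against 43.8% of all genes, and 1 and 5 after scaling). Tsc22d3 (GILZ), which glucocorticoids induce, was at 118, 115 and 103 FPKM in Ctrl liver and at 31.6, 32.9 and 28.5 in LKO liver, a change of -1.82 ± 0.11 on the log2 scale (limma adjusted p = 0.000216). Zbtb16, another glucocorticoid-induced gene, moved the other way, at 1.84, 2.31 and 6.74 FPKM in Ctrl and 14.99, 18.2 and 19.9 in LKO (log2 fold change 2.16 ± 0.36, limma adjusted p = 0.00515). Klf15 itself was lower in LKO liver, as given above. Of the 2 denervation transcripts tested in liver, 0 passed the adjusted threshold.

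In iWAT 0 of 149 genes had a limma adjusted p under 0.05 (0% of all genes), with 28 at an unadjusted p under 0.05 (15.0% of all genes had one) and 7 that met the criterion (beside 3.25% of all genes). Among them, Pdk4 was at 73.3, 55.8 and 63.9 FPKM in Ctrl and at 150, 129 and 197 in LKO (log2 fold change 1.28 ± 0.17, limma adjusted p = 0.0884). Pck1, of gluconeogenesis and glyceroneogenesis, was at 1375, 786 and 1467 FPKM in Ctrl and at 2066, 3072 and 3093 in LKO (1.21 ± 0.29, limma adjusted p = 0.152). Fbxo21, an F-box protein related to atrogin-1 by its domain, was at 33.5, 27.1 and 40.5 FPKM in Ctrl and at 49.9, 81.6 and 71.6 in LKO (0.97 ± 0.21, limma adjusted p = 0.131). The other 4 were Zbtb16 at 1.86 ± 0.55, Chrnb1, an acetylcholine receptor subunit, at 0.64 ± 0.10, Smad7, an inhibitor of TGF-beta signalling, at 0.61 ± 0.19, and Bbc3, a promoter of apoptosis, at -0.88 ± 0.14, with limma adjusted p from 0.093 to 0.218.

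In hypothalamus 0 of 152 genes had a limma adjusted p under 0.05 (0.0217% of all genes had one), with 7 at an unadjusted p under 0.05 (3.72% of all genes had one) and 3 that met the criterion (beside 0.333% of all genes). Zbtb16 was at 1.63, 1.55 and 1.96 FPKM in Ctrl and at 4.75, 7.13 and 7.90 in LKO. Its log2 fold change was 1.46 ± 0.16 (limma adjusted p = 0.13), and its adjusted p without LKO replicate 1 was 0.0275. Fkbp5, a glucocorticoid-induced immunophilin, had a log2 fold change of 0.59 ± 0.18 with overlapping groups. Ywhaz, a 14-3-3 protein that binds phosphorylated FOXO, was at 183, 191 and 191 FPKM in Ctrl and at 194, 75.0 and 72.5 in LKO, so that its lower mean rested on LKO replicates 2 and 3. Its limma adjusted p was 0.999, and without LKO replicate 1 it was 0.015.

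**Figure D4:**
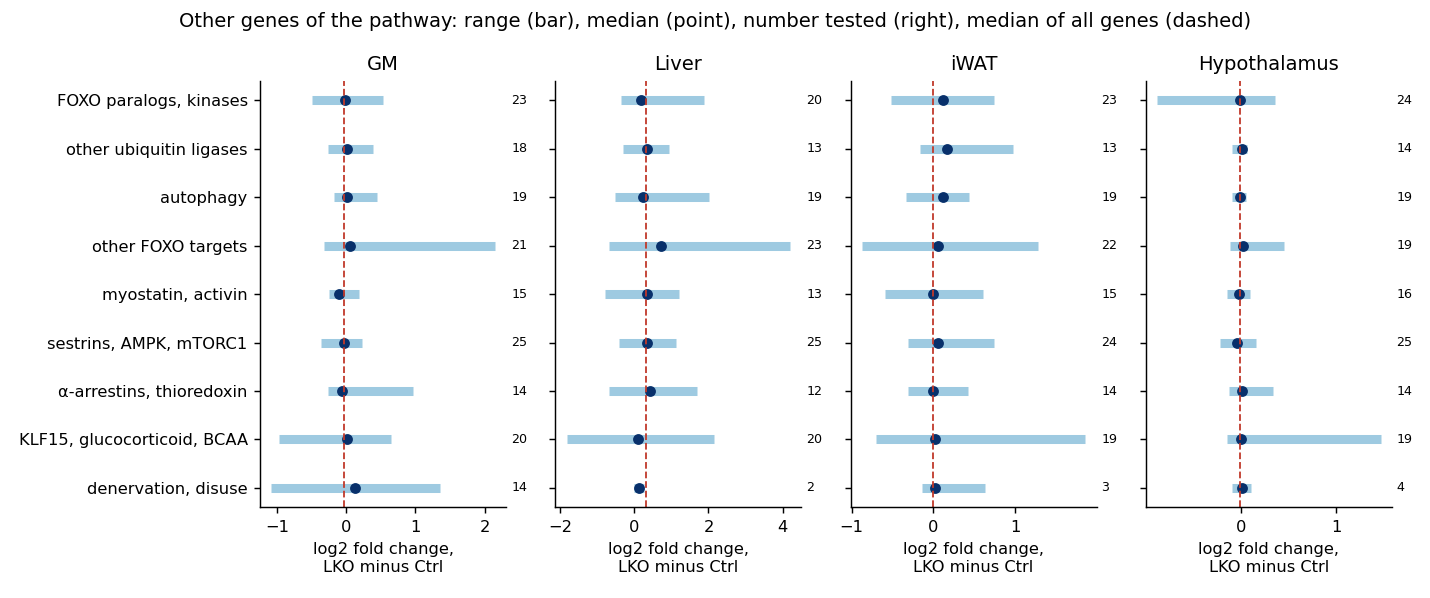
Each panel is a tissue and each row a list of pathway genes other than the 8 genes, with the log2 fold change (LKO minus Ctrl, deposited scale) on the horizontal axis, a bar from the lowest to the highest gene, a point at the median, the number of genes tested at the right and a dashed line at the median of all genes of the tissue. In liver the other FOXO targets have a median of 0.72 against 0.33 for all genes, and in GM the list medians lie between -0.11 and 0.13. The lists were chosen with earlier results of these data known.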

How the data were processed

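Total RNA was extracted with Trizol, and TruSeq v2 libraries were read as 100-nt paired ends on a HiSeq4000, per the labels. The authors deposited FPKM in a joined table and, for each library, FPKM, TPM and the mean coverage of each gene, with no stated scaling between libraries. The submitters' processing notes list FastQC 0.11.5, Trimmomatic 0.32, HISAT2 2.0.5, Bowtie2 2.2.6, STAR 2.5.2b and StringTie 1.3.3b and the mm10 genome; which step used which is not given in the sources used here. Read counts were not used, so intervals from counting could not be given. Coordinates are those of GRCm38.p6, the assembly of mm10.

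For each tissue, a gene was kept if 3 or more of the 6 libraries reached 1 FPKM, and fitted on log2(FPKM + 1), a scale that understates changes of low genes, with limma 3.58.1 in R 4.3.3 (eBayes with trend), LKO against Ctrl. Ctrl tissues were compared in 1 fit of 12 libraries. P-values were Benjamini-Hochberg adjusted over all genes tested. The scripts were tested on simulated data. Alternatives were a pseudocount of 0.1, no filter, deposited TPM, median-ratio scaling, a block for the replicate number and leaving out each library. Pathway genes named were up to 3 per list and tissue with the largest change among those meeting the criterion, and not all of them are printed. The 8 genes, the 9 lists and the tests were chosen with earlier results of these data known. Python 3.11.15 with pandas 2.3.3, numpy 2.4.6 and matplotlib 3.10.9 prepared the tables and plots.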

Additional observations from a re-analysis of the deposited data

Results flagged for a closer look

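Klf15 had opposite signs in different tissues, with every LKO library above all Ctrl libraries in muscle (log2 fold change 0.50) and hypothalamus (0.21) and every one below them in liver (-0.68). Among the other pathway genes the same pattern was seen for Arrdc2 in liver (-0.69) and iWAT (0.40), for Tsc22d3 in liver (-1.82) and hypothalamus (0.35), and for Bbc3 in liver (0.61) and iWAT (-0.88). These differences between tissues were not tested.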

How the results depend on the processing

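With single libraries left out, the number of the 8 genes that met the criterion ranged from 3 to 5 in muscle (4 with all libraries), was 2 throughout in liver, and ranged from 0 to 4 in iWAT (1 with all) and from 0 to 1 in hypothalamus (0 with all). The 4 in iWAT came without LKO replicate 1, and the 1 in hypothalamus without Ctrl replicate 1. The iWAT count was 3 with a pseudocount of 0.1, 0 with no filter and 2 with TPM, and the liver count was 1 with TPM. With the pseudocount of 0.1 the log2 fold changes in iWAT were 0.618 for Foxo3 and 0.615 for Fbxo32, past the 1.5-fold limit, against 0.52 and 0.47 as reported. The causes of the other shifts were not tested. The other pathway genes past the adjusted threshold ranged from 0 to 1 in muscle, 18 to 91 in liver, 0 to 2 in iWAT and 0 to 2 in hypothalamus when single libraries were left out, with the 1 and both counts of 2 found without LKO replicate 1. In liver other settings gave 50 to 75 (62 as reported), and the shares of all genes under these settings are not given. Ctrl tissue differences of the 6 genes tested there ranged from 30 to 31 of 36 with single libraries left out, and from 27 (deposited TPM) to 30 under the other alternatives. Of the 62 liver genes called, 1 had the opposite sign after median-ratio scaling, where it was not past the threshold, and 0 did under the other alternatives.

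Replicate numbers are shared by Ctrl and LKO in the labels, but same-numbered libraries did not deviate together in every pair (r from 0.05 to 0.35 in GM, 0.03 to 0.15 in liver, -0.12 to 0.30 in iWAT and -0.14 to 0.14 in hypothalamus). With a block for the replicate number, the 8-gene counts were 4, 2, 1 and 0 in GM, liver, iWAT and hypothalamus, the other pathway genes were 0, 53, 0 and 0, and the Ctrl tissue count was 30 of 36.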
